A study of Mus musculus with 8 samples.

Results

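The probes described here are those whose name starts with A_30_P, a set on the Agilent mouse array aimed at noncoding transcripts between genes. They were chosen by name alone, and there were 16251 of them among the 55681 probes that are not controls, or 29.2%. RNA of brown adipose tissue (BAT) was hybridized to one-colour arrays, 1 for each mouse. The animals were male C57BL/6NCrSlc mice on normal chow under a daily light and dark cycle. They had thoracic aortic constriction (TAC), which narrows the aorta, or a sham operation (Sham) at 11 weeks of age. BAT was taken at 13 weeks, from 4 mice of each group by the labels. For the time since the operation the labels give both 2 weeks, in the source name, and 4 weeks, in the description. Scanner values were used for Sham replicates 2, 3 and 4 and TAC replicates 1 to 4, and Sham replicate 1 enters only through the authors' value table. All 7 arrays lay on 1 slide, Sham in row 1 and TAC in row 2, so slide row and operation cannot be told apart.

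Long intergenic noncoding RNAs are transcripts without a long open reading frame that lie between protein-coding genes. Many are spliced and polyadenylated like messenger RNAs, and as a class they are usually less abundant and more restricted to a tissue. Several well-known members act in the nucleus, where they hold together nuclear bodies or silence neighbouring genes.

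The design of the set was read from the target names. A region and an orientation, forward or reverse on the chromosome, were given for 16181 probes, which covered 4607 oriented regions in 3540 distinct regions. Another 57 probes carried the names of 12 known transcripts such as NEAT1 and XIST, so not every probe lacks a name. The last 13 probes had 3 regions of no orientation as target. The median region was 7316 bases wide, with quartiles of 787 and 21816 bases. Regions lay on the 19 autosomes and on the X chromosome, which held 153. Most targets had several probes, 3 on 1811 targets and 5 on 985. Of the oriented regions, 2104 (45.7%) overlapped another region of the same orientation, so probes are not independent measures of separate transcripts. The regions were not placed against annotated genes, because the gene table at hand is of another assembly, and whether each lies between genes was not tested.

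The tissue label was set against marker genes of brown adipocytes. All 13 markers had a probe that was tested, and the brightest of these probes was that of Cidea, a lipid droplet protein, at a level of 10.42. Levels are log2 intensities relative to the 75th percentile of the array. Ucp1, the uncoupling protein that makes heat, was at 9.40, 9.70 and 9.53 on the Sham arrays and at 8.37, 9.22, 9.17 and 8.97 on the TAC arrays.

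A spot is called well above background by the extraction software when its signal clearly exceeds that of its surroundings. On Sham replicates 2, 3 and 4, 51.8%, 42.9% and 49.3% of the A_30_P probes were well above background. On TAC replicates 1 to 4 the shares were 43.4%, 41.3%, 37.2% and 45.1%. The mean was 48.0% ± 4.58 (SD, n = 3) for Sham and 41.7% ± 3.38 (SD, n = 4) for TAC, and the groups overlapped, since TAC replicates 1 and 4 were above Sham replicate 3. The shares of all other probes lay from 63.6% to 68.6% on Sham arrays and from 60.4% to 65.3% on TAC arrays, and overlapped as well. RefSeq noncoding RNA probes, of which there were 1472, were closest to the A_30_P probes, at 46.8% ± 2.92 (SD, n = 3) for Sham and 43.4% ± 2.35 (SD, n = 4) for TAC. RefSeq mRNA probes were at 72.5% ± 2.18 (SD, n = 3) and 69.8% ± 2.00 (SD, n = 4). Background itself differed between arrays. The 308 negative control spots had a median intensity of 4.03, 4.18 and 4.00 units on the Sham arrays and of 4.92, 5.28, 6.79 and 4.05 units on the TAC arrays. The part of this background in the lower shares on TAC arrays was not tested.

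**Figure D1:**
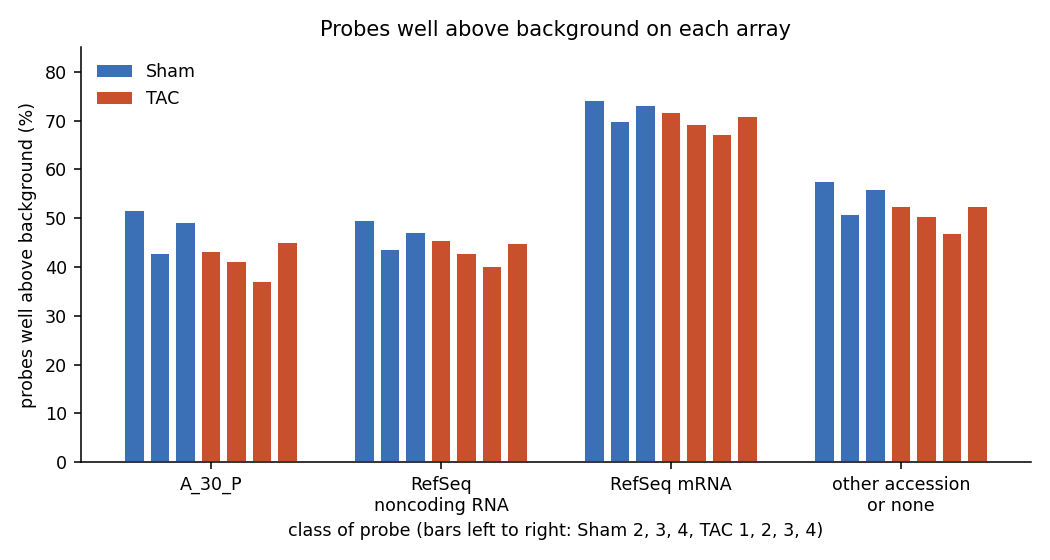
Percent of probes well above background on each array, by class of probe, with 1 bar per array (blue Sham, red TAC). A_30_P probes lie between 37.2% and 51.8%, close to RefSeq noncoding RNA probes and below RefSeq mRNA probes.

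Most A_30_P probes were either measured on every array or on none. All 7 arrays were well above background for 5391 probes (33.2%), and none for 6300 (38.8%). Among the other probes the shares were 58.1% and 25.4%. Among RefSeq noncoding RNA probes they were 37.0% and 41.7%. A single array was well above background for 1694 A_30_P probes (10.4%). Probes of one target often differed. Of the 3397 targets with at least 3 probes, 382 (11.2%) had every probe well above background on all 7 arrays, and 326 (9.60%) had none on any array. In 1246 targets, 1 or more probes were well above background on all arrays while 1 or more others were on none.

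The A_30_P probes were dim. Their median level was -4.81, -4.97 and -4.80 on Sham replicates 2, 3 and 4 and between -5.20 and -4.87 on the TAC arrays, lowest on TAC replicate 1. The other probes had medians between -2.67 and -2.65 on the Sham arrays and between -2.66 and -2.56 on the TAC arrays. The distance between the medians was widest on TAC replicate 1, at -2.65, and lay between -2.37 and -2.14 on the other arrays. Over all arrays it was -2.32, and -0.83 with normexp background correction. That correction was run with an offset of 50 units added to every value, which by itself draws dim levels together. Over the probes well above background on all arrays, the distance was between -2.33 and -2.28 on every array. The brightness of a probe also depends on its own sequence, so these values compare sets of probes and not transcripts. The mean level over the 7 arrays was above the 75th percentile of the array for 1037 A_30_P probes (6.38%) and for 31.1% of the other probes. At more than 32 times that percentile there were 75 A_30_P probes (0.462%) and 2124 other probes (5.39%). A_30_P probes gave between 3.60% and 3.86% of the summed intensity of an array, and the 10 brightest gave between 22.5% and 23.5% of that.

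**Figure D2:**
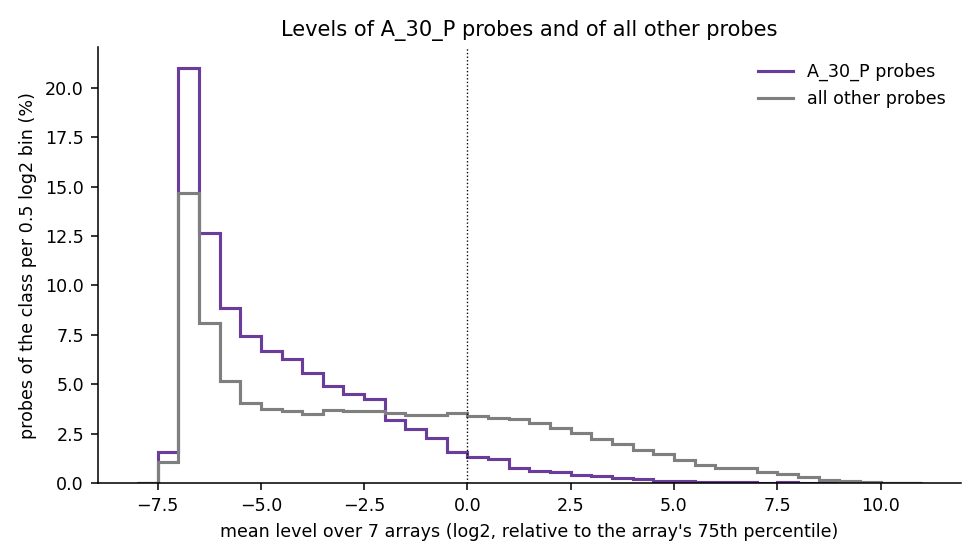
Distribution of the mean level over 7 arrays for A_30_P probes (purple) and all other probes (grey), as percent of the class in each bin. The median is -5.10 for A_30_P probes and -2.68 for the others, and the dotted line marks the 75th percentile of the array.

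The spread between replicates depended on the level. For A_30_P probes the median SD within groups was 0.48 log2 units below a level of -5, 0.21 between -3 and -2, and 0.12 above 3. For the other probes it was 0.47, 0.23 and 0.12 over the same ranges. At equal level the SD of A_30_P probes was thus close to that of the rest of the array.

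The 10 brightest A_30_P probes had 10 different targets and differed little between the groups. A_30_P01031754, for a region of 796 bases, had a mean level of 8.93 ± 0.15 (SD, n = 3) on the Sham arrays and 8.98 ± 0.03 (SD, n = 4) on the TAC arrays. The other 2 probes of its target were also well above background on all arrays, at mean levels of 6.75 and 7.52. A_30_P01031448 was at 8.63, 8.72 and 8.65 on the Sham arrays and at 8.41, 8.73, 8.52 and 8.53 on the TAC arrays. Here the other probes disagreed, since 3 of the 6 others were well above background on no array. A_30_P01025225 had a mean level of 8.53, A_30_P01032016 of 8.50, A_30_P01020128 of 8.47 and A_30_P01022075 of 8.32. Next came A_30_P01031264 at 8.28, A_30_P01023523 at 8.12, A_30_P01020570 at 7.96 and A_30_P01020015 at 7.88. A_30_P01031264 and A_30_P01020570 are for the opposite orientations of the same region of 24014 bases. Among the 10, no TAC minus Sham difference was larger in size than 0.18 log2 units. For A_30_P01020015 every TAC array was nonetheless below every Sham array (-0.14 ± 0.08, SE, limma adjusted p = 0.498). The 2 other probes of its target were lower too, by -0.34 and -0.29.

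The effect of TAC was tested with limma, which fits each probe and moderates its variance with that of all probes, over the 33359 probes that passed the filter of 3 arrays well above background. Of the A_30_P probes, 7509 (46.2%) entered this test, and 65.6% of the others did. Probes well above background on all 3 Sham and no TAC arrays could enter too, 121 A_30_P probes (0.745%) and 154 others (0.391%). The reverse held for 1 A_30_P probe and 1 other. With TAC values below background, the former can add to the counts of lower probes given next. None of the 7509 passed an adjusted p of 0.05, against 0.0% of all probes tested. The smallest adjusted value was 0.0575, and without TAC replicate 4, 3 A_30_P probes passed. Counted at an unadjusted p under 0.05, 310 A_30_P probes (4.13%) were higher after TAC, against 4.38% of all probes tested. The 581 that were lower (7.74%) stood against 8.43% of all. With the 75th percentile taken over the probes well above background on all arrays, 396 were higher (5.27%) and 470 lower (6.26%), against 6.16% and 7.15% of all. Without Sham replicate 3, 192 were higher (2.63%) and 345 lower (4.72%), against 2.74% and 4.55% of all. Without Sham replicate 4, 246 were higher (3.47%) and 365 lower (5.14%), against 3.41% and 6.10% of all. Every TAC array was above every Sham array for 314 A_30_P probes (4.18%), against 5.59% of all probes tested. The reverse, all TAC arrays lower than all Sham arrays, held for 622 (8.28%), against 10.4%. Across these settings the shares among A_30_P probes lay on either side of those of the whole array. In bulk tissue, fewer cells of a type and less RNA per cell cannot be told apart, and the p-values measure the spread between these mice.

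The median difference between TAC and Sham was -0.05 log2 units over the A_30_P probes tested and -0.03 over the other probes tested. Over the probes well above background on all arrays both medians were -0.02, and over all probes measured, dim ones included, both were 0.01. Array by array, relative to the Sham mean, the median of the A_30_P probes tested was -0.10 on TAC replicate 1, 0.01 on TAC replicate 2, -0.05 on TAC replicate 3 and -0.04 on TAC replicate 4. The fitted difference was at least 2-fold for 59 higher and 105 lower A_30_P probes, together 2.18% of those tested. For the other probes tested the share was 1.59%. Some of these A_30_P probes, such as A_30_P01026441, were well above background on no array of a group. Their fitted folds rest on values below background and are not measured folds.

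**Figure D3:**
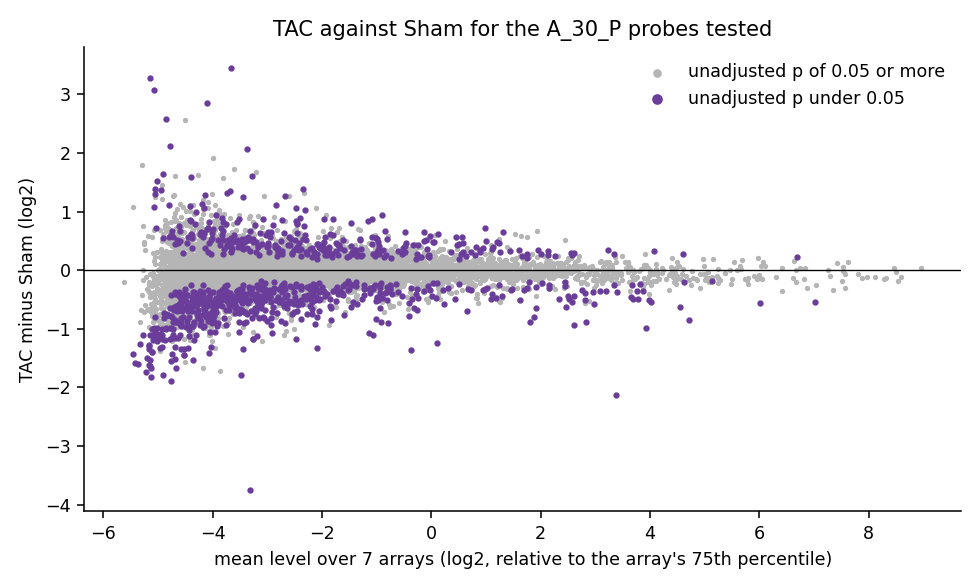
TAC minus Sham difference (log2) against mean level for the 7509 A_30_P probes tested, with probes at an unadjusted p under 0.05 in purple. Differences are widest at low levels, and no probe passed an adjusted p of 0.05.

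TAC replicate 1 lay apart in these probes. On the first principal component of the 5391 A_30_P probes well above background on all arrays, which held 36.9% of the variance, it was at 25.6. TAC replicates 2, 3 and 4 were at -2.96, -4.88 and 6.28, and Sham replicates 2, 3 and 4 at -4.99, -11.2 and -7.85. Macrophage markers stood high on this array too. The summed linear level of the 10 macrophage markers, led by Csf1r, was 78.2 on TAC replicate 1, against 24.9, 21.1 and 22.1 on the other TAC arrays and 28.6, 26.2 and 32.2 on the Sham arrays. That of the 10 skeletal muscle markers, led by Myh4, was 39.1, 141 and 72.7 on the Sham arrays and 230.2, 178, 49.8 and 229 on the TAC arrays. The 13 brown adipocyte markers summed to 4956, 5985 and 5214 on the Sham arrays and to 3994, 5296, 4999.9 and 5095 on the TAC arrays. The 9 lymphocyte markers with a probe, led by Cd3e, summed to 2.72, 3.50 and 2.54 on the Sham arrays and to between 2.56 and 4.35 on the TAC arrays, highest on TAC replicate 1. The 5 erythroid markers, led by Hba-a1, summed to 378, 399.8 and 658 on the Sham arrays and to 506, 455, 312 and 525 on the TAC arrays. None of these markers passed an adjusted p of 0.05 in limma. At an unadjusted p under 0.05, 3 of the 13 brown adipocyte markers were lower and 0 higher, and 0 of the others were called, against 8.43% of all probes tested that were lower and 4.38% that were higher. Every marker with a probe was well above background on at least 1 array, and the part of these cells in the A_30_P values was not tested. Without TAC replicate 1, 315 A_30_P probes were higher (4.33%) and 609 lower (8.36%) at an unadjusted p under 0.05, against 4.73% and 8.56% of all probes tested.

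Among the 8 probes with the smallest p in the direction of higher levels after TAC, only A_30_P01026176 had a mean level above the 75th percentile of the array. It was at 0.62, 0.45 and 0.64 on the Sham arrays and at 1.51, 1.39, 1.25 and 1.05 on the TAC arrays, a difference of 0.73 ± 0.13 (SE, limma adjusted p = 0.196). The groups did not overlap, and in the authors' table Sham replicate 1, at 1.12, came close to the lowest TAC array, at 1.22. The only other probe of its target that was tested went the other way, by -0.20, and the last probe was well above background on no array. A_30_P01029940 was at -3.06, -2.87 and -2.76 on the Sham arrays and at -2.29, -1.62, -1.73 and -1.85 on the TAC arrays, a difference of 1.02 ± 0.17 (SE, limma adjusted p = 0.196). All 4 other probes of its target were tested, and none went the same way. A_30_P01023150 was at -3.96, -4.04 and -3.96 on the Sham arrays and at -3.57, -3.51, -3.54 and -3.63 on the TAC arrays (0.42 ± 0.08, SE, limma adjusted p = 0.197). The groups did not overlap, and 8 of the 9 other probes of its target were higher too. The differences of A_30_P01027090, A_30_P01032401 and A_30_P01027705 were 1.07, 0.54 and 0.78 log2 units. None of these 3 probes, nor A_30_P01033428, was well above background on every array, and A_30_P01032401 and A_30_P01033428 were on 1 Sham array each. For A_30_P01032401 the groups overlapped in the authors' table, where Sham replicate 1 was at -4.41 and the highest TAC array at -4.44.

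The smallest p of the array was that of a probe that entered the test through its Sham arrays alone. A_30_P01026441, for a region of 9537 bases, was at -3.70, -3.59 and -3.79 on the Sham arrays and at -4.91, -4.97, -5.08 and -5.11 on the TAC arrays. It was well above background on all 3 Sham arrays and on no TAC array, so its adjusted p in limma, 0.0575, rests on TAC values below background. As the TAC arrays give only a bound, it was at least 1.94-fold lower after TAC. In the authors' table Sham replicate 1 was the lowest Sham array, at -4.24, and the highest TAC array was at -4.72. With median scaling, array weights and the table of the same 7 arrays its adjusted p in limma was 0.0471, 0.0254 and 0.0499. With outlier spots kept it was 0.0577, with quantile normalization 0.0781 and with an intensity trend in the variance 0.0922. It was 0.138 with the 75th percentile over probes well above background on all arrays, 0.153 with the table of 8 arrays, which adds Sham replicate 1, 0.322 with no filter and 0.383 with the replicate block on the scanner arrays. With a TAC array left out it ran from 0.0526 to 0.321, and with a Sham array left out or a filter that requires every array it was not tested. With normexp background correction and its offset its difference was -0.34 log2 units and its limma adjusted p 0.263. Its target has 2 other probes, of which 1 was tested and lower, and the other was well above background on no array.

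Other probes among the 8 were brighter. A_30_P01021087 was at -2.76, -2.57 and -2.47 on the Sham arrays and at -4.09, -3.38, -3.80 and -3.82 on the TAC arrays, a difference of -1.17 ± 0.17 (SE, limma adjusted p = 0.196). Of its target, 3 other probes were tested and 1 went the same way, and 6 were well above background on no array. A_30_P01022603 was at -1.75, -1.59 and -2.05 on the Sham arrays and at -3.15, -2.63, -2.91 and -3.22 on the TAC arrays, a difference of -1.18 ± 0.18 (SE, limma adjusted p = 0.196). Of its target, 3 other probes were tested and 2 went the same way. A_30_P01018970 had the most other probes that were tested and lower. It was at -2.95, -2.52 and -2.59 on the Sham arrays and at -3.48, -3.46, -3.46 and -3.62 on the TAC arrays. The other 4 probes were tested and lower, by -0.82 to -0.50 log2 units, 2 of them at an unadjusted p under 0.05. A_30_P01019272, A_30_P01026194 and A_30_P01017777 had differences of -0.72, -0.71 and -0.71, and A_30_P01029809 was well above background on no TAC array. Of these 4, only A_30_P01017777 was well above background on all 7 arrays. For A_30_P01019272 the groups overlapped in the authors' table, where Sham replicate 1 was at -4.44 and the lowest TAC array at -4.32. For A_30_P01029809 Sham replicate 1 and the highest TAC array were level there, at -4.44.

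**Figure D4:**
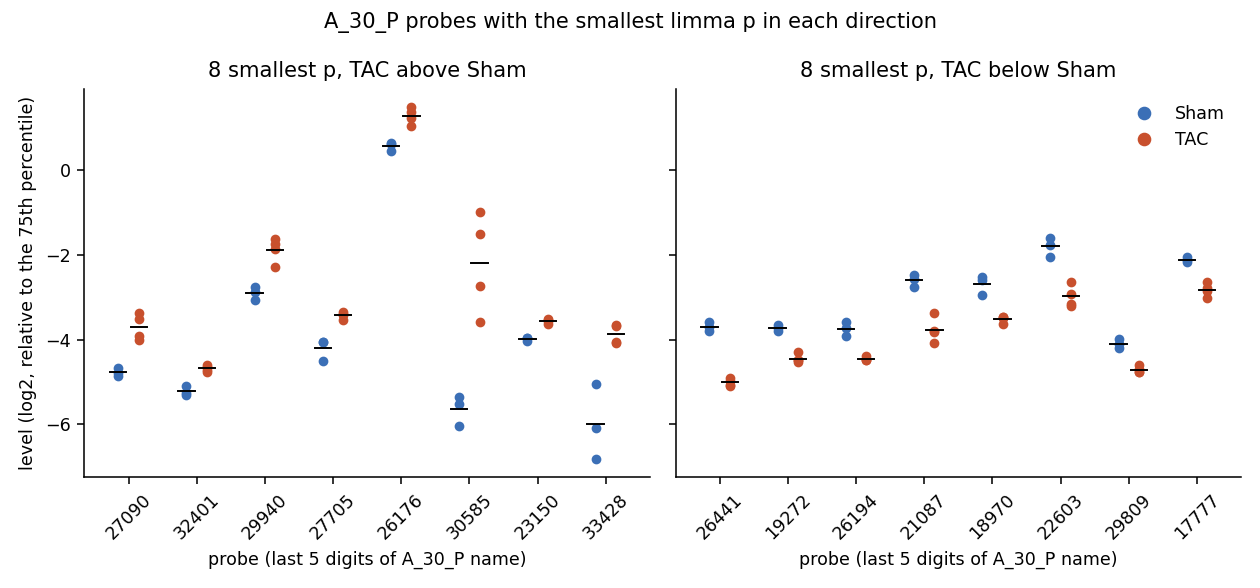
Level on each array of the 8 A_30_P probes with the smallest limma p in each direction, with group means as bars (blue Sham, red TAC). On these 7 arrays the groups do not overlap for these probes, which were chosen for their difference, and all but A_30_P01026441 had an adjusted p of 0.196 or 0.197.

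Probes well above background in only 1 group were uneven in number. On all 4 TAC and none of the 3 Sham arrays there was 1 A_30_P probe (0.00615%), against 0.00359% of all 55681 probes. With an array left out this count was 8 without TAC replicate 4, 4 without Sham replicate 2 or TAC replicate 1, 3 without TAC replicate 2, and 2 without Sham replicate 4 or TAC replicate 3. On all 3 Sham and none of the 4 TAC arrays there were 121 A_30_P probes (0.745%), against 0.494% of all probes and 0.391% of the others. They came from 119 targets. They were dim in both groups, with a median level of -4.30 in Sham and -5.20 in TAC. The lowest level that counted as well above background was -5.16, -4.93 and -5.01 on the Sham arrays and -4.88, -4.50, -4.29 and -4.92 on the TAC arrays, so more signal was needed on TAC replicates 2 and 3. Against those limits 118 of the 121 were above 1-fold and none was above 2-fold. The part of the unequal limits in the 121 was not tested. Without Sham replicate 3 there were 404 such probes, and without TAC replicate 4 there were 249. No share of all probes is given for counts with an array left out, so these are not compared with the whole array.

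The 6 with the largest bounds were, after A_30_P01026441, at least 1.93-fold (A_30_P01019939), 1.92-fold (A_30_P01020173), 1.90-fold (A_30_P01031952), 1.85-fold (A_30_P01026155) and 1.73-fold (A_30_P01027415) lower after TAC. A_30_P01020173 was at -3.43, -3.63 and -4.02 on the Sham arrays and at -6.18, -4.61, -4.91 and -4.86 on the TAC arrays. TAC replicate 1 was the lowest TAC array for all of these 5 probes. In the authors' table Sham replicate 1 was below the highest TAC array for A_30_P01019939, at -4.16 against -3.70, and for A_30_P01027415, at -4.72 against -4.24. For A_30_P01026155 both were at -4.41.

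The 1 probe that was well above background on all TAC and no Sham arrays was A_30_P01030585, for a region of 22338 bases. It was at -5.54, -6.03 and -5.36 on the Sham arrays and at -2.73, -0.98, -1.51 and -3.57 on the TAC arrays. It was at least 7.14-fold higher after TAC, and Sham replicate 1 was at -5.51 in the authors' table. It entered the test through its TAC arrays alone, so its p and its fitted difference rest on Sham values below background. With normexp background correction and its offset the fitted difference was 0.96 log2 units in place of 3.44. The bound applies only to values without that correction and offset. The other 2 probes of its target were well above background on no array, with mean levels of -5.71 and -6.54.

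Some of the largest differences, named here after their values were seen, came from a single probe of a target. A_30_P01026635 was at -2.96, -2.69 and -2.35 on TAC replicates 1, 2 and 3, at -6.95 on TAC replicate 4, and at -7.23, -6.76 and -7.08 on the Sham arrays. A_30_P01031900 was at -3.05, -2.46 and -2.58 on the same 3 TAC arrays, at -6.95 on TAC replicate 4, and at -7.22, -6.76 and -6.54 on the Sham arrays. A_30_P01029024 was at -2.27, -2.39 and -2.13 on those TAC arrays, at -6.86 on TAC replicate 4, and at -5.41, -6.06 and -6.46 on the Sham arrays. Without TAC replicate 4 these were the 3 A_30_P probes that passed in limma, of 7 probes in all. They were well above background on no Sham array and entered the test through TAC replicates 1, 2 and 3 alone, so that passing restates how they were chosen. With TAC replicate 4 their limma adjusted p was 0.317, 0.333 and 0.415. The other probes of their targets did not share the pattern. Those of A_30_P01026635 were at -5.43 or lower, except that A_30_P01031166 was at -2.28 on TAC replicate 3. Of those of A_30_P01031900, 1 had a difference of -0.19 and 1 was well above background on no array. Of those of A_30_P01029024, 2 had differences of -0.12 and -0.01 and 1 was well above background on no array. Well above background on TAC replicates 1, 2 and 3 alone were 7 of the 16251 A_30_P probes and 18 of the 39430 other probes. The pattern was thus not particular to A_30_P probes.

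In the lower direction, A_30_P01032968 had the largest difference of the 1037 A_30_P probes with a mean level above the 75th percentile. It was at 4.40, 4.76 and 4.64 on the Sham arrays and at 0.73, 3.40, 2.51 and 3.23 on the TAC arrays (-2.13 ± 0.62, SE, limma adjusted p = 0.274). Sham replicate 1 was at 4.27 in the authors' table. Of the 4 other probes of its target, A_30_P01020556 was at 0.35, 0.56 and 0.41 on the Sham arrays and at 0.32, 0.42, 0.44 and 0.36 on the TAC arrays, so the probes disagreed. A_30_P01030169, the only probe of its target, was at -0.83, -0.99 and -1.67 on the Sham arrays and at -7.16, -2.98, -4.93 and -4.61 on the TAC arrays. TAC replicate 1 was the lowest array for both.

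Targets were then read as a whole. Of the 1150 targets with at least 3 probes tested, all probes were higher in 179 (15.6%) and all were lower in 300 (26.1%), and 671 (58.3%) had probes on both sides. Among RefSeq transcripts with at least 3 probes tested, of which there were 472, the shares were 21.8%, 35.8% and 42.4%. Every probe tested was higher at an unadjusted p under 0.05 in 6 targets and lower in 7, and among the 472 RefSeq transcripts in 2 and 17. Targets overlap, so these counts are not of separate transcripts.

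These 13 targets were chosen for their agreement, and their values are a description. The target of A_30_P01022535, with 5 probes on 19176 bases, had a mean level of 1.41, 1.34 and 1.46 on the Sham arrays and of 1.83, 1.64, 1.80 and 1.69 on the TAC arrays. Its 5 differences lay between 0.29 and 0.40. The target of A_30_P01018010, with 5 probes on 32251 bases, was at 3.20, 3.35 and 3.26 on the Sham arrays and at 2.95, 2.89, 2.95 and 2.87 on the TAC arrays, with differences between -0.54 and -0.21. The target of A_30_P01019037, with 3 probes on 1824 bases, was at 3.47, 3.03 and 2.28 on the Sham arrays and at 2.44, 2.43, 1.67 and 1.55 on the TAC arrays, so that the groups overlapped. The target of A_30_P01023457, with 3 probes, was at 0.18, -0.58 and -0.44 on the Sham arrays and at 0.46, 0.20, 0.26 and 0.38 on the TAC arrays. When the tested probes of a target were averaged before the fit, none of the 3343 targets passed an adjusted p of 0.05 in limma. At an unadjusted p under 0.05, 114 (3.41%) were higher and 290 (8.67%) lower, against 4.44% and 8.82% of all features in that fit.

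Probes for both orientations were present for 1067 regions. At least 1 probe was well above background on all arrays in both orientations of 485 regions (45.5%), in exactly 1 orientation of 432 (40.5%) and in neither of 150 (14.1%). The forward orientation was the brighter in 507 and the reverse in 560. The mean levels of the orientations lay at least 8-fold apart in 195 regions (18.3%), where part of the distance can come from the probes themselves and the dim side can lie at background.

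The 6 regions with the widest distance were chosen among those with 1 orientation well above background on all arrays. That their bright side was well above background is therefore set by the choice. A_30_P01020128 (forward) was at 8.47 and A_30_P01030593 (reverse), which was not well above background on all arrays, at -4.54 on average. The region of A_30_P01021851 is the best covered, with 5 probes on each side of 21156 bases. Its reverse probes averaged 4.44, 4.47 and 4.46 on the Sham arrays and 4.41, 4.12, 4.21 and 4.22 on the TAC arrays. Of its forward probes, 3 were well above background on all arrays and 2 on none, so that part of the distance is set by the floor. For the region of A_30_P01027122, which is 103276 bases wide, 2 reverse probes had a mean level of 2.58 and the 5 forward probes were well above background on no array. For the region of A_30_P01020864 the only reverse probe was well above background on no array, and for that of A_30_P01017721 none of the 5 reverse probes was on all arrays. Where the dim side is at background, its level and the rank of the region are set by the floor. For the region of A_30_P01029799, 1 of 3 reverse probes was well above background on all arrays. A_30_P01017721 was at 2.99, 3.48 and 3.47 on the Sham arrays and at 2.52, 2.77, 2.78 and 2.88 on the TAC arrays, a difference of -0.58 log2 units. None of the bright orientations of the other 5 regions had a mean difference larger in size than 0.22.

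The transcripts with names gave a check on how well several probes of one RNA agree. NEAT1, the scaffold of the nuclear bodies called paraspeckles, had 5 A_30_P probes well above background on all arrays. Their mean level was 6.36, 6.19 and 6.41 on the Sham arrays and 6.09, 6.30, 6.53 and 6.48 on the TAC arrays. The differences were between -0.00455 and 0.06 log2 units, and the RefSeq probe of Neat1 differed by 0.02. TUG1 also had 5 such probes, with differences between 0.02 and 0.13, and the 3 RefSeq probes differed by -0.02 to 0.23.

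NEAT2 is the array's name for Malat1, an abundant nuclear RNA found in splicing speckles. Its 3 probes had a mean level of 1.11, 0.80 and 0.94 on the Sham arrays and of 1.56, 0.97, 1.66 and 1.43 on the TAC arrays. TAC replicate 2 lay within the Sham range, and the other TAC arrays above it. The differences were 0.39, 0.50 and 0.46, of which 2 had an unadjusted p under 0.05, and the smallest limma adjusted p was 0.332. The RefSeq probe of Malat1 differed by 0.44 ± 0.18 (SE, limma adjusted p = 0.372).

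KCNQ1ot1, an imprinted antisense RNA that silences neighbouring genes on the paternal chromosome, had probes that disagreed. A_30_P01026714 was at -1.53, -1.22 and -1.25 on the Sham arrays and at -3.22, -2.53, -2.40 and -2.48 on the TAC arrays (-1.32 ± 0.21, SE, limma adjusted p = 0.196). On every TAC array A_30_P01028860 and A_30_P01019032 were under the lowest level that counted as well above background, and no difference is given for them. A_30_P01028756, well above background on 6 arrays, differed by -0.29. Of the 4 A_30_P probes tested 3 were lower, among them A_30_P01028860, which entered the test through its Sham arrays alone. A_30_P01026203 was at -0.32, -0.15 and -0.26 on the Sham arrays and at -0.08, -0.13, -0.07 and -0.08 on the TAC arrays, a difference of 0.15. The RefSeq probes of Kcnq1ot1 differed by -0.22 and 0.16. Which part of the long transcript each probe reads was not determined.

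**Figure D5:**
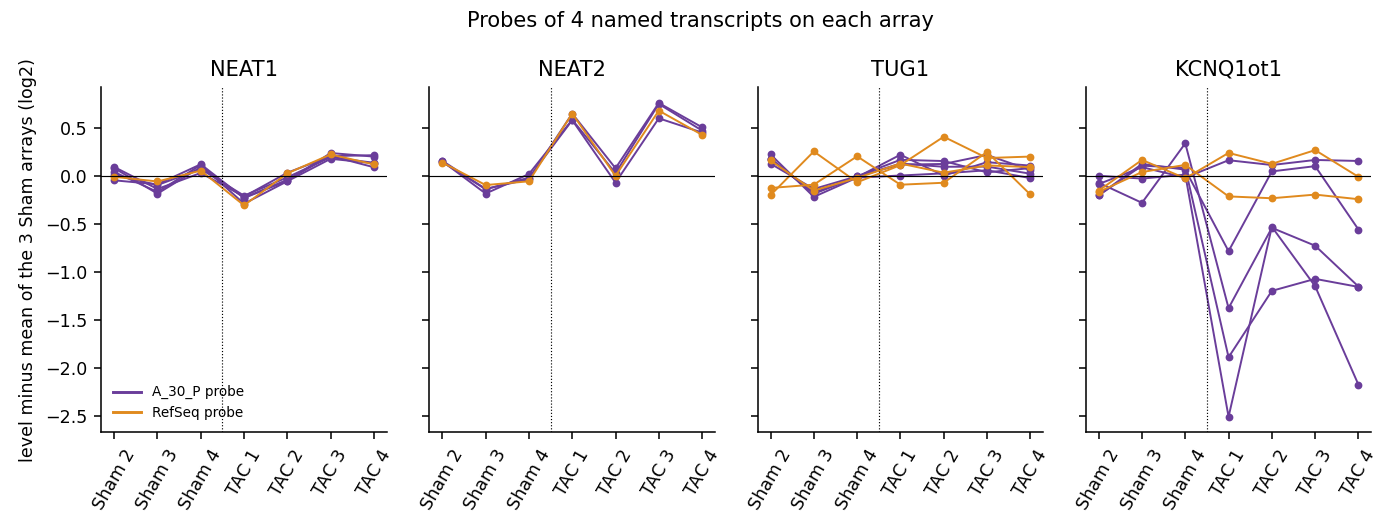
Level of each probe of 4 named transcripts on each array, minus its own mean over the 3 Sham arrays (log2), with A_30_P probes in purple and RefSeq probes in orange. Probes move together for NEAT1 and NEAT2, and spread for KCNQ1ot1, where the differences of the probes well above background on all arrays run from -1.32 to 0.16, 2 other probes are below background on the TAC arrays, and A_30_P01028756 is well above it on 6 arrays.

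H19, an imprinted RNA expressed from the maternal chromosome, varied among mice within both groups. Its 5 probes averaged -3.69, -1.60 and -3.22 on the Sham arrays and -2.29, -2.93, -4.18 and -2.43 on the TAC arrays, so the groups overlapped. XIST, which coats the inactive X chromosome of females, is a check of sex. Of its 5 probes, 4 were well above background on no array, and 1 was on a single array, in mice that are labelled as male. TSIX, its antisense partner, also had 4 of 5 probes well above background on no array. HOTAIR and PINC each had 1 probe of 5 well above background on all arrays. NRON had 2 of 5, BRN1-A 2 of 4 and lincP21 0 of 5.

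A wider list of noncoding transcripts measured by RefSeq probes stood beside these. Of 45 names, 28 had a probe and 22 were tested, each through its brightest probe. None passed an adjusted p of 0.05, 2 were higher and 0 lower at an unadjusted p under 0.05, against 4.38% and 8.43% of all probes tested, and the median difference was 0.12 log2 units. The dimmer RefSeq probe of Kcnq1ot1, not counted here, was lower by -0.22 at an unadjusted limma p of 0.0499. The 2 that were higher were Malat1 and Dancr, a long noncoding RNA that hosts a small nucleolar RNA. Dancr differed by 0.33 ± 0.12 (SE, limma adjusted p = 0.336). Xist, Jpx, Firre and Fendrr were well above background on no array. Meg3, an imprinted RNA, was at 2.18, 1.96 and 2.23 on the Sham arrays and at 3.24, 2.07, 2.24 and 2.26 on the TAC arrays, with TAC replicate 1 above the rest.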

How the data were processed

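Total RNA of BAT was labelled with Cy3 and hybridized to 1 array per mouse. The submitters' processing notes name Agilent Feature Extraction 10.7.1.1, and the deposited scanner values are background-subtracted intensities on a linear scale. The authors' value table holds intensities of all 8 arrays, which on the 7 scanner arrays were proportional to the scanner values. Spots marked as outliers were left out, log2 intensities were taken relative to the 75th percentile of each array, and spots of a probe were averaged. Probes entered the test when 3 or more of the 7 arrays were well above background and each group had 2 or more measured arrays. The test was that of limma 3.58.1 (lmFit, eBayes) under R 4.3.3. Its p-values were adjusted by Benjamini-Hochberg across every tested probe, and the procedure was tested on simulated data. Summaries used Python 3.11.15, pandas 2.3.3 and numpy 2.4.6.

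For a probe below background in a whole group, the bound sets the mean of the bright group against the mean, over the dim group, of the higher of the lowest level well above background on that array and the probe's own level. Probes named are the 10 brightest, the 8 with the smallest p in each direction, the 6 largest bounds per direction and the 6 widest orientation pairs. Others are said to be named after their values were seen, or belong to the named transcripts and to the 13 targets that agree. The members and lists were chosen with earlier results of these data known. Symbols come from a RefSeq table of assembly GRCm38.p6, which gave a name to 94.1% of RefSeq probes. No coordinates or probe sequences are given. Alternatives were other background correction (normexp with an offset of 50), scaling, filters, variance models, the methods' t-test and the value table. Further ones were a block for the replicate number and leaving out single arrays. The mean of the tested probes of a target was an alternative chosen after seeing the data.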

Additional observations from a re-analysis of the deposited data

Results flagged for a closer look

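Among 78 groups of 4 values, 5 had 1 array far from the rest, where chance alone gives about 1 group in 20. That rate need not hold here, since the 16 probes with the smallest p were chosen by their values on the 7 scanner arrays, which favours groups with little spread and leaves Sham replicate 1 outside the choice. A_30_P01031952 was at -6.70 on TAC replicate 1, while the other TAC arrays lay from -4.99 to -4.87, so that the gap was 0.932 of the group's range. It was well above background on no TAC array, so this gap lies between values below background. A_30_P01018970 was at -3.62 on TAC replicate 4, with the others from -3.48 to -3.46 (gap 0.874). A_30_P01019272 was at -4.30 on TAC replicate 2, with the others from -4.52 to -4.49 (gap 0.836), and only 2 of these 4 arrays were well above background. In the authors' value table, Sham replicate 1 was the lone array of its group for A_30_P01019272, at -4.44 against -3.61 to -3.46 (gap 0.847), and for A_30_P01023150, at -4.35 against -3.86 to -3.76 (gap 0.83). Values of Sham replicate 1 come from the table alone.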

How the results depend on the processing

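No A_30_P probe passed an adjusted p of 0.05 in limma, and 1 did with median scaling, with the table of the same 7 arrays or with array weights. That 1 was A_30_P01026441, which passed the filter through its Sham arrays alone. With each array left out in turn the count ran from 0 to 3, and the 3 entered through TAC arrays alone. At an unadjusted p under 0.05, 581 probes were lower (7.74%, against 8.43% of all probes tested). There were 368 with normexp (4.90% against 8.02%) and 1003 with no filter on dim probes (6.17% against 6.05%). A filter that requires every array gave 381 (7.07% against 8.84%). With an array left out, lower probes ran from 345 without Sham replicate 3 (4.72% against 4.55%) to 679 without TAC replicate 2 (9.16% against 8.99%). Higher probes, 310 in number, ran from 192 to 364 with an array left out. Averaging the tested probes of a target, an alternative chosen after seeing the data, tests fewer features. Of 3343 targets, 114 were then higher (3.41% against 4.44% of all features) and 290 lower (8.67% against 8.82%). The median difference of the probes tested, -0.05, was -0.00568 with the 75th percentile over probes detected on all arrays and 0.00702 with no filter, and ran from -0.07 to -0.03 with an array left out. Probes well above background on all TAC and no Sham arrays, 1 in number, were 6 with the positive and significant flag and ran from 1 to 8 with an array left out. The reverse count of 121 was 101 with that flag and ran from 137 to 404 with an array left out. No share of all probes is given for these alternative counts, so they are not compared with the whole array. The distance between the medians of A_30_P and other probes, -2.32, was -0.83 with normexp and ran from -2.35 to -2.27 with an array left out. The TAC minus Sham difference in the percent of A_30_P probes well above background, -6.25, ran from -8.80 to -4.36.

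On the scanner arrays, those that share a replicate number had correlations of deviations of 0.00168, -0.03 and -0.02 for replicates 2, 3 and 4. In the table of 8 arrays the correlation was 0.27 for replicate 1 and 0.02, 0.06 and 0.02 for the others, so not every pair was above 0.1 and the numbers were not taken to pair the arrays. With the replicate block, 332 probes were higher (4.42% against 4.03% of all) and 604 lower (8.04% against 7.43%) on the scanner arrays. In the table of 8 arrays 363 were higher (4.83% against 4.73%) and 807 lower (10.75% against 10.42%). All 4 shares exceeded those of all probes, unlike those without the block on the scanner arrays, and 0 passed an adjusted p of 0.05 in either. The 16 probes with the smallest p were chosen for their difference, and several alternatives leave it as it is, so that 318 of 318 values kept their direction is no sign of stability. With normexp their differences were smaller in size, such as -0.34 in place of -1.32 for A_30_P01026441 and 0.14 in place of 0.78 for A_30_P01027705. The offset of 50 units added there shrinks the differences of dim probes by itself. The parts of the offset and of the background correction cannot be told apart here. Signal over background limits the dim probes, which give only a bound where a whole group is below it. The methods' test without a shared variance gave 0 at an adjusted p of 0.05, with 264 higher (3.52% against 4.80% of all) and 442 lower (5.89% against 7.75%). The cause of the changed counts was not tested.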
